A study of Mus musculus with 8 samples.

Results

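The enzymes that write and erase acetyl and methyl groups on histones and methyl groups on DNA were examined in aortic RNA from mice that had received angiotensin II (AngII). The genes were taken by symbol, namely every row that starts with Hdac, Sirt, Kat, Kdm, Kmt, Dnmt or Tet followed directly by a digit, together with Ezh1, Ezh2, Eed, Suz12, Ep300 and Crebbp. Of the 35896 genes listed, 73 matched, and 64 had at least 10 counts over the 8 libraries. These 64 genes comprise 11 histone deacetylases, 7 sirtuins, 10 acetyltransferases, 18 lysine demethylases, 8 lysine methyltransferases, 4 core subunits of Polycomb repressive complex 2 (PRC2), 3 DNA methyltransferases and 3 Tet dioxygenases. The 9 rows under the minimum were Dnmt3l with 9 counts and, with at most 4 counts each, Kat2b-ps, Hdac1-ps, Dnmt3l-ps1, Dnmt3c, Kdm4dl, Kat6b-ps1, Kat6b-ps2 and Dnmt3a-ps1. Kdm4d, with 51 counts in all, was removed by the filter on low counts, so that 63 members were tested. Levels are given as CPM, the counts of a gene relative to the library total after TMM scaling.

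Male C57BL6 mice, 11 weeks old at the start, received AngII at 2.8 mg/kg/day from osmotic minipumps for 2 weeks. Aortas were collected when the infusion ended (AngII) or after another 2 weeks (AngII+2W) or 3 weeks (AngII+3W). CTRL aortas came from untreated littermates of matched age. The study describes collecting controls at all of these time points, but the labels do not say which of them entered the CTRL libraries. Each group had 2 libraries, each library pooled a portion of the aorta from 2 mice, and ribosomal RNA was depleted before sequencing. No transgene or deletion was involved. All values come from whole tissue, so that a change in the number of cells of a type and a change in RNA per cell cannot be told apart. For a single gene an exact permutation test of 2 against 2 libraries cannot reach a p below 0.333, and differences were therefore judged with edgeR's quasi-likelihood test, in which the 8 libraries shared 1 model, with Benjamini-Hochberg adjusted p-values over 17182 tested genes (FDR, threshold 0.05).

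Acetylation of lysines in histone tails loosens the contact of histones with DNA and is read by bromodomain proteins, and deacetylases remove it. Methylation acts by position, since trimethylated lysine 4 of histone H3 marks active promoters while trimethylated lysine 27 (H3K27me3), placed by PRC2, marks silenced genes. DNA methyltransferases add methyl groups to cytosine and Tet enzymes oxidise them. In muscle cells the class IIa deacetylases, Hdac4, Hdac5, Hdac7 and Hdac9, are known for binding MEF2 transcription factors and leaving the nucleus when phosphorylated. In the arterial wall H3K27me3 and acetylation have both been studied as regulators of smooth muscle genes. The study asked whether effects of AngII outlast its infusion.

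Most of the enzymes were well expressed in the aorta. The median level of the members tested was 51.0 CPM over all libraries, against 15.0 CPM for all genes tested, and the members took up 0.432% to 0.524% of all counts, depending on the library. Levels of different genes were compared as CPM per kilobase of transcript. On this scale Sirt2, a cytoplasmic NAD-dependent deacetylase, had the highest mean level with 37.1 CPM per kilobase, and was followed by Kmt2e with 32.5, Kmt5b with 28.8, Kmt5a with 27.8 and Hdac2 with 23.3. Kmt2e belongs to the Kmt2 family without an established methyltransferase activity, and Kmt5a and Kmt5b methylate lysine 20 of histone H4. At the other end were Kdm4d with 0.121 CPM per kilobase, Dnmt3b with 0.903, Tet1 with 0.914, Kdm8 with 1.54, Hdac11 with 2.989 and Hdac9 with 3.71. Of the DNA methyltransferases, the de novo enzyme Dnmt3a had 11.7 CPM per kilobase and the maintenance enzyme Dnmt1 had 7.31, and of the Tet enzymes Tet3 had 22.1 and Tet2 had 12.1. Hdac9 was the member with the widest range between libraries among those tested, a 3.60-fold difference between the highest and the lowest library, and Hdac11 came next with 2.80-fold.

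**Figure D1:**
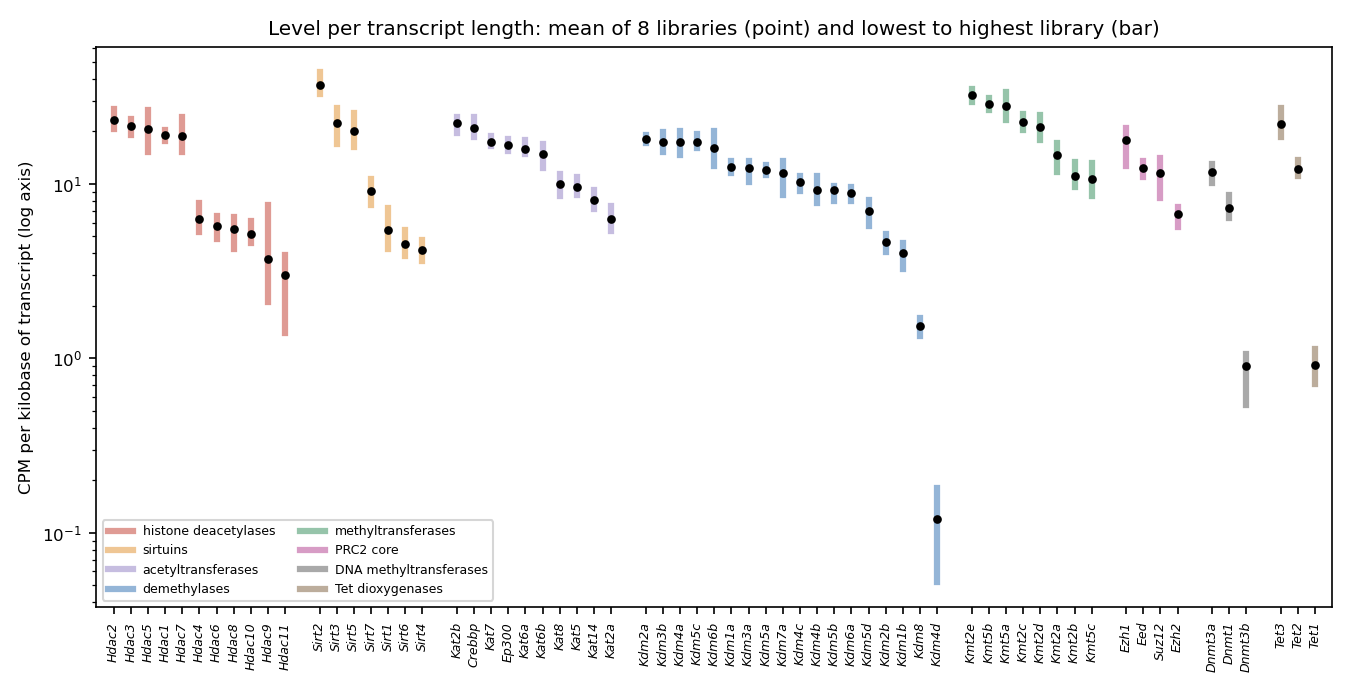
Mean level of each of the 64 members over the 8 libraries in CPM per kilobase of transcript (points, log axis), with bars from the lowest to the highest library and colours for the enzyme families. Sirt2 and Kmt2e stand at the top with 37.1 and 32.5, and the bars of Hdac9 and Hdac11 are the longest among the members tested.

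At the end of the infusion, 2 of the 63 members tested (3.17%) passed an FDR of 0.05 against CTRL, and both were lower. Of all genes tested, 5.10% passed this threshold, and 2.20% passed as lower. The members that passed were Hdac9 and Hdac11. At an unadjusted p below 0.05 there were 7 members (11.1%, against 20.2% of all genes), and all 7 were lower in AngII, against 9.29% of all genes that were lower by this rule. Besides Hdac9 and Hdac11 they were Hdac5, Ezh1, Hdac8, Tet1 and Hdac4. The median log2 fold change of the members was -0.10, against -0.01 over all genes tested, and 43 of 63 members (68.3%) had a value below 0, against 51.0% of all genes. Both AngII libraries lay below both CTRL libraries for 26 members (41.3%, against 24.9% of all genes) and above them for 4 members (6.35%, against 24.4%). The differences were small. The median absolute log2 fold change was 0.163 for the members and 0.247 for all genes, and 3 members (4.76%) exceeded 0.5 in either direction, against 27.9% of all genes. The 95% interval lay within a 2-fold change of CTRL for 60 of 63 members, and within a 1.5-fold change for 45.

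**Figure D2:**
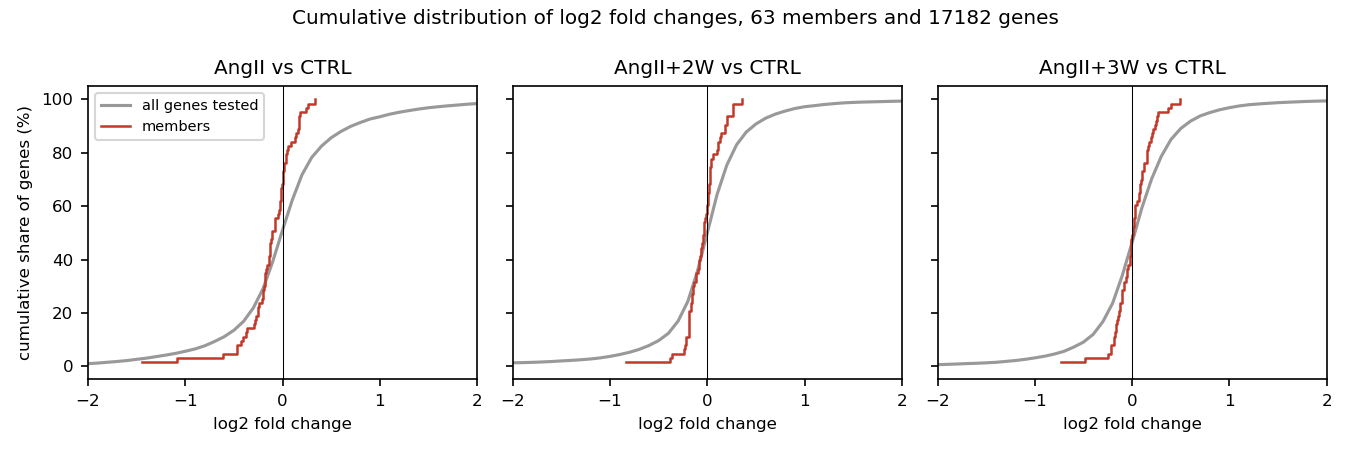
Cumulative share of genes (y axis, percent) by log2 fold change from CTRL (x axis) for the 63 members and for all 17182 genes tested, in each of the comparisons with CTRL. The curve of the members is steeper than that of all genes in each panel, and in AngII it crosses its middle at -0.10.

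At 2 weeks after the infusion none of the 63 members passed an FDR of 0.05 against CTRL in edgeR's quasi-likelihood test, and neither did any other gene tested (0%). The count of members was also 0 with DESeq2, with edgeR's likelihood ratio test and with limma-voom. Of all genes tested, these tools called 373, 420 and 0. At an unadjusted p below 0.05 there were 3 members (4.76%, against 10.7% of all genes), namely Hdac9 and Kdm6b with lower values and Kdm1b with a higher value. At 3 weeks after the infusion the count was again 0 of 63 in edgeR's quasi-likelihood test, against 0.285% of all genes. It was also 0 with the same other tools, which called 585, 556 and 44 of all genes in the same order. Here 4 members (6.35%, against 12.5% of all genes) had an unadjusted p below 0.05, Hdac5 and Hdac9 with lower values and Kdm7a and Sirt5 with higher values. The median log2 fold change of the members was -0.04 in AngII+2W and 0.01 in AngII+3W, against 0.00 and 0.03 over all genes tested. The intervals of 62 of the 63 members lay within a 2-fold change of CTRL in AngII+2W and also in AngII+3W, where the exception in both was Hdac9. Without AngII+3W replicate 2, Hdac5 passed the threshold in AngII+3W and the median of the members was -0.10, while without AngII+3W replicate 1 the median was 0.050. The comparisons with CTRL share the CTRL libraries.

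**Figure D3:**
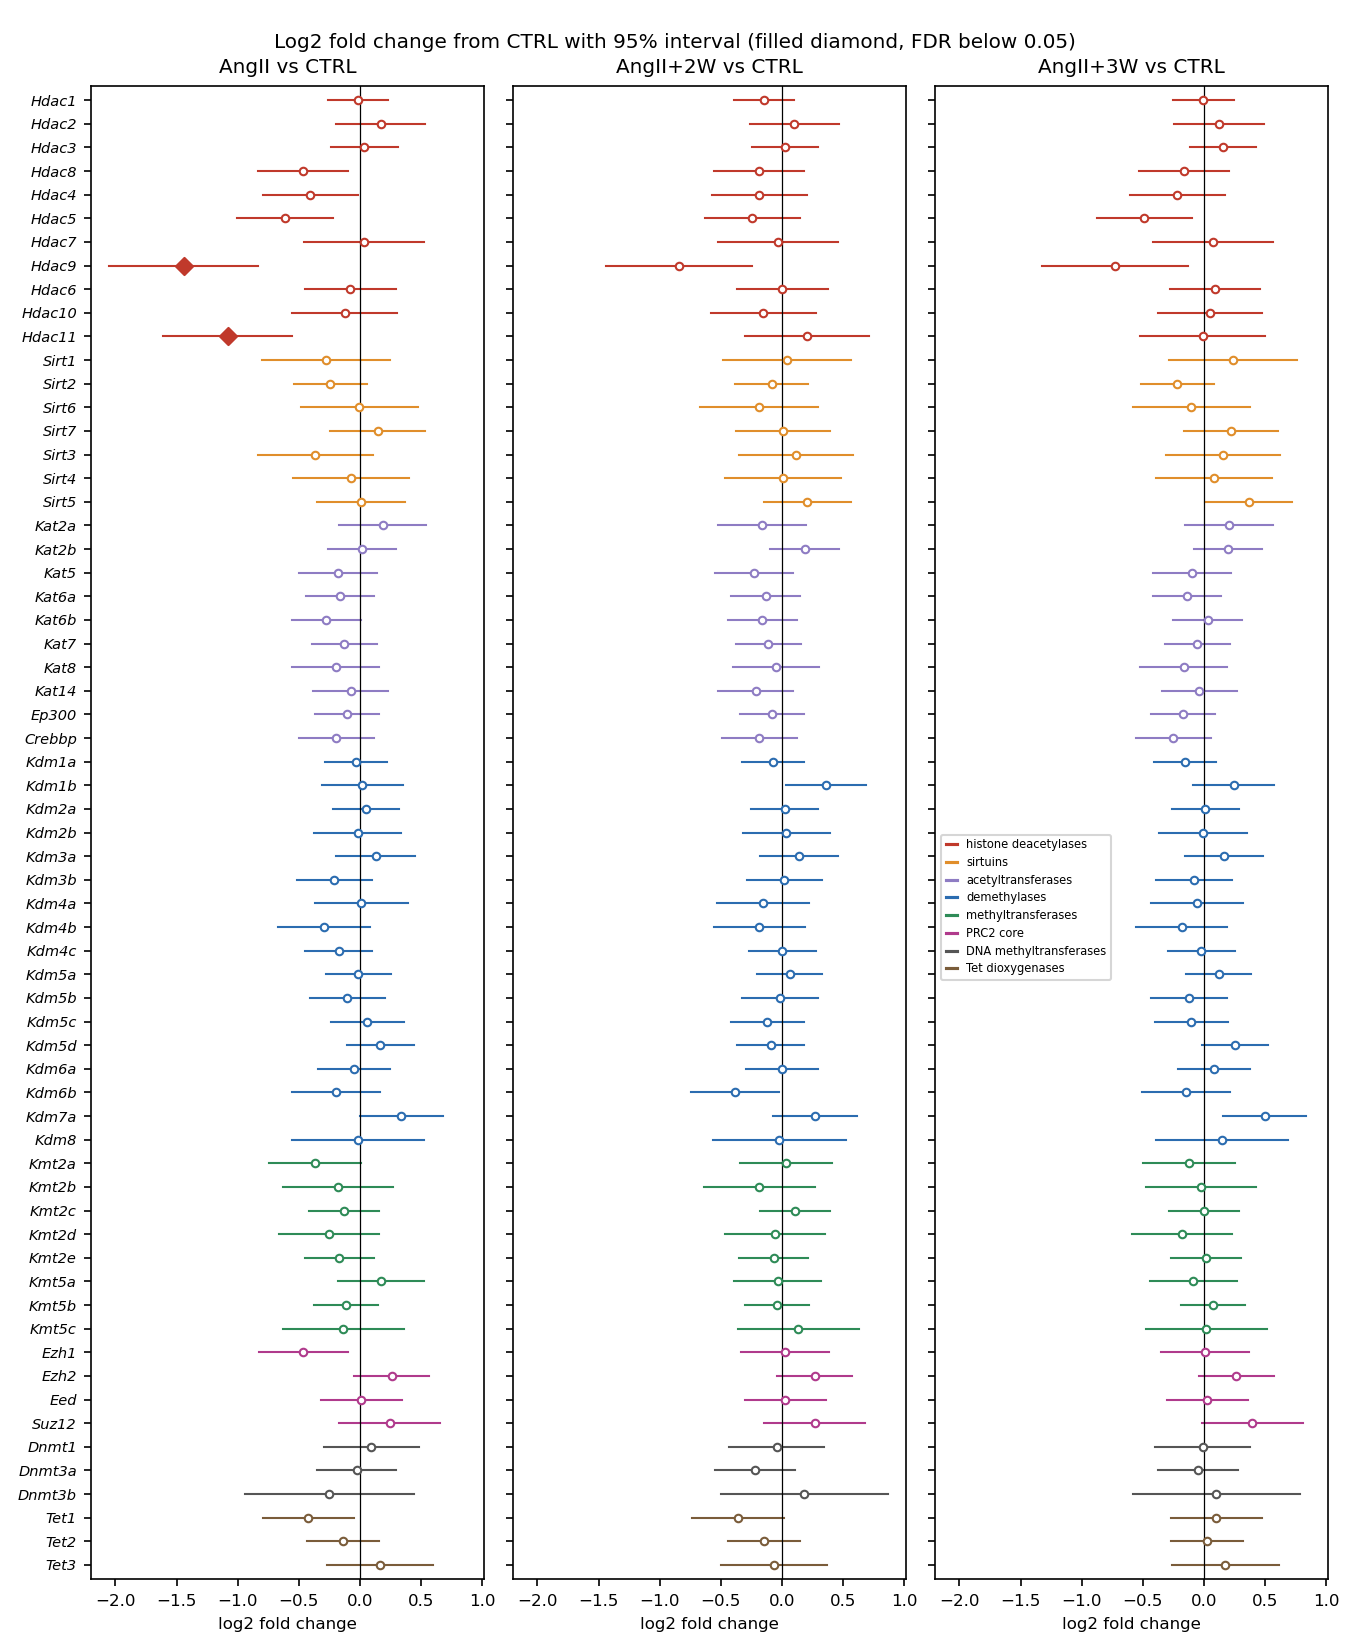
Log2 fold change from CTRL (x axis) of the 63 members tested, by family from top to bottom, in AngII, AngII+2W and AngII+3W, with 95% intervals and filled diamonds for an FDR below 0.05. Hdac9 (-1.44) and Hdac11 (-1.08) are the filled symbols, both in AngII, and the interval of Hdac9 lies below 0 in all panels.

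The histone deacetylases held both members that fell. Of their 11 members, 2 fell in AngII, 0 rose and 9 did not pass, while 2.20% of all genes tested passed as lower. The median log2 fold change of the family was -0.13, against -0.01 over all genes. Hdac9, a class IIa deacetylase with little catalytic activity of its own that acts as a co-repressor of MEF2, lies on the reverse strand of chromosome 12 (34047580 to 34917095, GRCm38). It had 60.3 and 32.9 CPM in the CTRL libraries, 16.7 and 17.6 in those of AngII, 27.7 and 24.4 in those of AngII+2W and 26.2 and 29.9 in those of AngII+3W. The CTRL libraries differed most from each other, yet all 6 libraries of the infused groups lay below both, and the AngII libraries lay below those of the later groups. Its log2 fold change from CTRL was -1.44 in AngII (standard error 0.262, FDR 0.0264 by edgeR's quasi-likelihood test), -0.84 in AngII+2W (FDR 0.312) and -0.73 in AngII+3W (FDR 0.3001). CTRL replicate 1 weighed on these values, since without it the change was -0.94 in AngII (FDR 0.0789), -0.33 in AngII+2W (FDR 0.575) and -0.23 in AngII+3W (FDR 0.577). The call in AngII was also lost without AngII replicate 1 (FDR 0.127), AngII replicate 2 (FDR 0.179), AngII+2W replicate 1 (FDR 0.0667) or AngII+2W replicate 2 (FDR 0.0660), with the same direction. In AngII+3W the level of Hdac9 was above that in AngII by 0.71 on the log2 scale (FDR 0.215), a difference that did not pass the threshold.

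Hdac11, the only class IV deacetylase, which also removes fatty acyl groups from lysines, lies on the forward strand of chromosome 6 (91156665 to 91174692). It had CTRL levels of 9.35 and 8.19 CPM, AngII levels of 3.73 and 4.55, AngII+2W levels of 9.80 and 10.4 and AngII+3W levels of 7.15 and 10.3. The AngII libraries stood apart as the lowest, the AngII+2W libraries lay above both CTRL libraries, and those of AngII+3W lay on both sides of them. In AngII its log2 fold change was -1.08 (standard error 0.227, FDR 0.03999), against 0.20 in AngII+2W (FDR 0.808) and -0.01 in AngII+3W (FDR 0.991). Compared with AngII directly, Hdac11 was higher by 1.29 in AngII+2W (95% interval 0.76 to 1.81, FDR 0.0674) and by 1.07 in AngII+3W (0.54 to 1.60, FDR 0.0673), both just above the threshold. It passed in AngII+2W with DESeq2 (FDR 0.00239), with edgeR's likelihood ratio test, with every gene of at least 1 count, with only the 2 groups compared and without either AngII+3W library, and in AngII+3W with DESeq2 (FDR 0.0151), with the likelihood ratio test, with every gene of at least 1 count and with GC-corrected offsets. The call in AngII was lost with library totals in place of TMM (FDR 0.0743) and with GC-corrected offsets and the replicate number as a block (FDR 0.0588). It was also lost without CTRL replicate 1 (FDR 0.167), CTRL replicate 2 (FDR 0.101), AngII replicate 1 (FDR 0.201), AngII replicate 2 (FDR 0.175), AngII+2W replicate 1 (FDR 0.1002) or AngII+2W replicate 2 (FDR 0.0999). A stretch of 22.4% of the Hdac11 transcript is identical to the annotated transcript Gm44002, so that reads of the 2 genes could have been split.

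Hdac5, Hdac4 and Hdac8 had lower values in both AngII libraries than in both CTRL libraries without passing the threshold. Hdac5, a class IIa enzyme on chromosome 11 (102194432 to 102230166, reverse strand), had 95.7 and 100.2 CPM in the CTRL libraries, 61.1 and 66.7 in those of AngII, 79.7 and 85.9 in those of AngII+2W and 58.1 and 81.6 in those of AngII+3W. None of the infused libraries reached the CTRL level, and those of AngII+3W differed most from each other. Its log2 fold change was -0.62 in AngII (FDR 0.0827), -0.24 in AngII+2W (FDR 0.675) and -0.49 in AngII+3W (FDR 0.293). Hdac5 passed the threshold in AngII with DESeq2 (FDR 0.0307), with edgeR's likelihood ratio test (FDR 0.0409) and with GC-corrected offsets (FDR 0.0452), and without AngII+3W replicate 1 (FDR 0.0221) or replicate 2 (FDR 0.0229). Without AngII+3W replicate 2 it also passed in AngII+3W, where its log2 fold change was then -0.81 (FDR 0.0401), but without AngII+3W replicate 1 the value there was -0.27 (FDR 0.605). Hdac4, another class IIa enzyme, had CTRL levels of 63.2 and 53.7 CPM, AngII levels of 43.1 and 45.1, AngII+2W levels of 47.7 and 55.04 and AngII+3W levels of 42.9 and 57.5, with a log2 fold change of -0.41 in AngII (FDR 0.229). The later libraries overlapped the CTRL range. Hdac8, a class I enzyme that deacetylates the cohesin subunit Smc3, had 12.6 and 11.9 CPM in the CTRL libraries, 9.61 and 8.15 in those of AngII, 10.1 and 11.4 in those of AngII+2W and 11.0 and 10.9 in those of AngII+3W, with a log2 fold change of -0.47 in AngII (FDR 0.150). The other deacetylases, Hdac1, Hdac2, Hdac3, Hdac6, Hdac7 and Hdac10, had log2 fold changes between -0.13 and 0.17 in AngII, between -0.15 and 0.10 in AngII+2W and between -0.01 and 0.15 in AngII+3W, with FDR of at least 0.619. They include Hdac1 and Hdac2, the catalytic subunits of the Sin3, NuRD and CoREST complexes. Hdac1 has annotated copies, one of them (Gm10093) 99.4% identical over 70.9% of the transcript, and its counts are uncertain to that extent. The summed level of the 11 deacetylases was CTRL levels of 471 and 460.1 CPM, AngII levels of 379 and 391, AngII+2W levels of 408 and 431 and AngII+3W levels of 388 and 460.3.

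**Figure D4:**
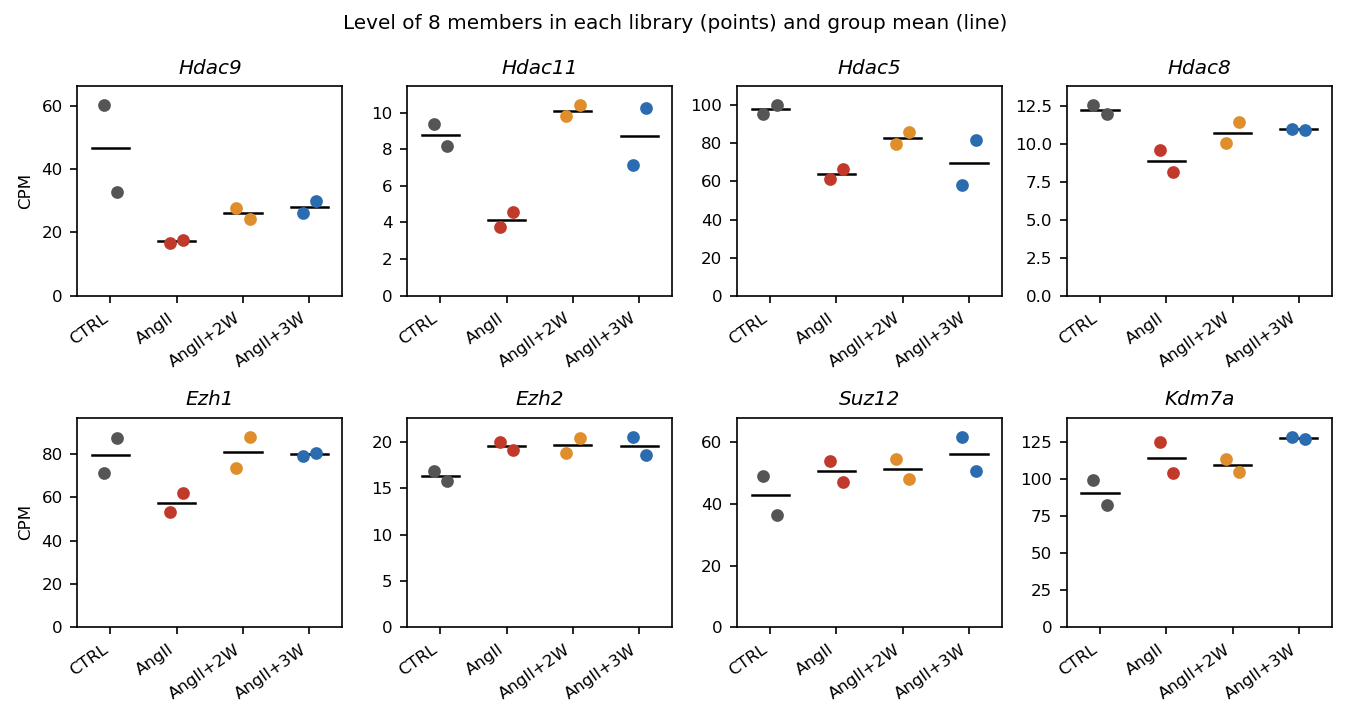
Level in CPM (y axis, from 0) of 8 members in each of the 8 libraries (points) with the mean of the 2 libraries of a group (line). The AngII points of Hdac9, Hdac11, Hdac5, Hdac8 and Ezh1 lie below both CTRL points, and those of Ezh2 and Kdm7a lie above them.

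The start regions of the deacetylases that fell, and of Hdac5, are shown because these genes had their lowest mean levels in the same libraries. They are 300 bases long, from 250 bases before to 50 bases after the RefSeq start (GRCm38.p6), written 5′ to 3′ on the strand of the gene, and capitals mark motif matches. The regions are chr12:34528840-34529139 and chr12:34917046-34917345 for Hdac9, which has more than 1 start, chr6:91156565-91156864 for Hdac11 and chr11:102230123-102230422 for Hdac5.
Hdac9 promoter 1: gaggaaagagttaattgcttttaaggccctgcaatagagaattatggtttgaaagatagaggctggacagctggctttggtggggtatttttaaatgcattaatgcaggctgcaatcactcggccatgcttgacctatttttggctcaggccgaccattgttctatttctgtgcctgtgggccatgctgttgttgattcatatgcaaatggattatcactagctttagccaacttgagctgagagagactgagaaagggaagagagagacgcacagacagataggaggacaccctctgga
Hdac9 promoter 2: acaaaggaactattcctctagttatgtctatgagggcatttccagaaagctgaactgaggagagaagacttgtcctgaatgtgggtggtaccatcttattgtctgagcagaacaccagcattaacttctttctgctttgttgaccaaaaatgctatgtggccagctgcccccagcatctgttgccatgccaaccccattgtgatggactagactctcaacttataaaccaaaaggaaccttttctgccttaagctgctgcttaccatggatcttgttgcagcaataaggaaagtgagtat
Hdac11 promoter 1: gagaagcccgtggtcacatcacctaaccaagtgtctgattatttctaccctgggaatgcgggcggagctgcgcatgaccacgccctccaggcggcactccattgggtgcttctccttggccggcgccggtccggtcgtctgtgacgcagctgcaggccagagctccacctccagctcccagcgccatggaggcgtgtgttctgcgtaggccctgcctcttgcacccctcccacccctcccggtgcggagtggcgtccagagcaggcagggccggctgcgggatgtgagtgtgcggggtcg
Hdac5 promoter 1: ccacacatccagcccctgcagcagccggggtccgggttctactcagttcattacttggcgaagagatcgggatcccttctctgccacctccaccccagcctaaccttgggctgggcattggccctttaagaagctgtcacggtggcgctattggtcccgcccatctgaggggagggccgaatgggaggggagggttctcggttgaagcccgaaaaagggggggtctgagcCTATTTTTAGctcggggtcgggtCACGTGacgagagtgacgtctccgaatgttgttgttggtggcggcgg
The motifs searched on both strands were the MEF2 site and the CArG box of serum response factor by name, TTTGGCGC and TTTCCCGC of E2F factors, and the E-box CACGTG. Hdac5 held a MEF2 match that starts 20 bases before the start and a CACGTG match from base 4 after it, which do not overlap, and the windows of Hdac9 and Hdac11 held none of these letters. The MEF2 motif was found in 3.19% of all 32851 windows of this length and in 3.95% of the 76 windows of members, in Hdac5, Kdm4c and Kdm5d, while CACGTG was found in 7.15% and 7.89%. The CArG box was found in 1.63% of all windows and in 1 member, Kdm5c. The windows of Hdac9 were poor in CpG, with 3 and 0 CG dinucleotides, whereas the median was 22 for windows of members and 7 for all windows.

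PRC2, which places H3K27me3, was represented by its alternative catalytic subunits Ezh1 and Ezh2, by the scaffold Suz12 and by Eed, which binds the mark itself. None of the 4 passed the threshold in any comparison. Ezh1 on chromosome 11 (101191115 to 101226463, reverse strand) had 71.4 and 87.6 CPM in the CTRL libraries, 53.1 and 62.2 in those of AngII, 73.5 and 88.2 in those of AngII+2W and 79.3 and 80.6 in those of AngII+3W. Its AngII libraries lay below all others. Its log2 fold change was -0.46 in AngII (95% interval -0.83 to -0.10, FDR 0.144), 0.02 in AngII+2W (FDR 0.977) and 0.01 in AngII+3W (FDR 0.991), and it was higher than in AngII by 0.49 in AngII+2W (FDR 0.200) and by 0.47 in AngII+3W (FDR 0.177). Ezh2, the subunit that is typical of dividing cells, lies on chromosome 6 (47530139 to 47595341, reverse strand) and had CTRL levels of 16.9 and 15.8 CPM, AngII levels of 19.98 and 19.1, AngII+2W levels of 18.9 and 20.4 and AngII+3W levels of 20.6 and 18.6. All infused libraries were above both CTRL libraries, with log2 fold changes of 0.26 (FDR 0.330), 0.27 (FDR 0.533) and 0.26 (FDR 0.467). Suz12 had 49.0 and 36.5 CPM in the CTRL libraries, 53.9 and 47.2 in those of AngII, 54.7 and 48.1 in those of AngII+2W and 61.9 and 50.6 in those of AngII+3W, and its log2 fold changes were 0.24 (FDR 0.513), 0.27 (FDR 0.660) and 0.40 (FDR 0.422). Without CTRL replicate 2, the lower of the CTRL libraries, they were 0.037, 0.070 and 0.18. Eed had CTRL levels of 27.8 and 22.8 CPM, AngII levels of 25.2 and 25.7, AngII+2W levels of 26.9 and 24.5 and AngII+3W levels of 27.04 and 24.4, and its log2 fold changes were 0.01, 0.03 and 0.03.

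The ratio of Ezh2 to Ezh1 counts does not depend on the scaling of a library. The CTRL libraries had ratios of 0.236 and 0.180, the AngII libraries of 0.376 and 0.307, the AngII+2W libraries of 0.257 and 0.231 and the AngII+3W libraries of 0.260 and 0.231. The AngII libraries had the highest ratios and the later libraries overlapped the upper CTRL value. In each group replicate 1 had the higher ratio. The transcripts differ in GC content, with 44.4% for Ezh2 and 51.1% for Ezh1, so a library difference that follows GC need not cancel. The ratio was not tested. The start regions of this pair, chr11:101226414-101226713 for Ezh1 and chr6:47594981-47595280 for Ezh2, are shown in the same form.
Ezh1 promoter 1: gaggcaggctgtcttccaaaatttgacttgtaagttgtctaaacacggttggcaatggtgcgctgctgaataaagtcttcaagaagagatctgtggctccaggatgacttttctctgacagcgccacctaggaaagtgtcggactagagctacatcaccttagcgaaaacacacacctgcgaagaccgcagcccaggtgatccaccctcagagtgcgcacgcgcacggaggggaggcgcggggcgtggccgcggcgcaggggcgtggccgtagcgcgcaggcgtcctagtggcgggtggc
Ezh2 promoter 1: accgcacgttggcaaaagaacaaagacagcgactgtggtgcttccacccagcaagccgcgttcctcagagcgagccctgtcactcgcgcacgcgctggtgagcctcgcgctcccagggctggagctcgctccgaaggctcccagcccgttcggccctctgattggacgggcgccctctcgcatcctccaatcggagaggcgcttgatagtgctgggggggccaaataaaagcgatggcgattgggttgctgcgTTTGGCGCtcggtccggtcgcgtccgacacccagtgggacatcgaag
The window of Ezh2 held the E2F letters TTTGGCGC from base 4 after the start, a motif found in 0.514% of all windows and otherwise only in Dnmt1 among the members, and the window of Ezh1 held none of the motifs. Suz12 held the other E2F motif, TTTCCCGC, as did Sirt4 and Kmt5c, against 1.07% of all windows. In the AngII libraries the markers of proliferation, of which 5 of 7 rose, summed to between 103 and 135 CPM, against 32.9 to 35.4 CPM in CTRL and 33.9 to 40.0 CPM in the later groups. Their part in the values of Ezh1 and Ezh2 was not tested.

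The lysine demethylases were the largest family, and none of the 17 tested passed the threshold in any comparison with CTRL. The demethylases of H3K27, Kdm6a (UTX) and Kdm6b (JMJD3), oppose PRC2. Kdm6a had 56.8 and 48.1 CPM in the CTRL libraries, 54.1 and 47.4 in those of AngII, 52.2 and 52.7 in those of AngII+2W and 56.1 and 54.9 in those of AngII+3W, and its log2 fold changes lay between -0.05 and 0.08. Kdm6b had CTRL levels of 109 and 134 CPM, AngII levels of 103 and 109, AngII+2W levels of 102 and 83.9 and AngII+3W levels of 105 and 115. Its lowest library belonged to AngII+2W, where the log2 fold change was -0.38 (95% interval -0.75 to -0.02, FDR 0.435). The count ratio of Kdm6b to Kdm6a ranged from 1.59 to 2.78 over the 8 libraries. Kdm7a, which removes methyl groups from lysines 9 and 27 of histone H3, had the largest positive value of all members in AngII+3W. It had 99.2 and 82.5 CPM in the CTRL libraries, 125 and 104 in those of AngII, 114 and 105 in those of AngII+2W and 129 and 127 in those of AngII+3W. Every infused library lay above both CTRL libraries, and the log2 fold change was 0.34 in AngII (FDR 0.253), 0.27 in AngII+2W (FDR 0.577) and 0.50 in AngII+3W (95% interval 0.15 to 0.84, FDR 0.223). Kdm1b, a flavin-dependent demethylase of lysine 4, had CTRL levels of 17.4 and 18.2 CPM, AngII levels of 19.8 and 16.3, AngII+2W levels of 22.9 and 22.8 and AngII+3W levels of 21.9 and 20.2, with a log2 fold change of 0.36 in AngII+2W (FDR 0.420). Kdm5d, the Y-linked demethylase of lysine 4, had 51.6 and 52.8 CPM in the CTRL libraries, 60.5 and 56.7 in those of AngII, 52.2 and 45.7 in those of AngII+2W and 64.4 and 60.1 in those of AngII+3W, with a log2 fold change of 0.25 in AngII+3W (FDR 0.431). The remaining 12 tested demethylases, Kdm1a, Kdm2a, Kdm2b, Kdm3a, Kdm3b, Kdm4a, Kdm4b, Kdm4c, Kdm5a, Kdm5b, Kdm5c and Kdm8, ranged from -0.30 (Kdm4b) to 0.13 (Kdm3a) in AngII, from -0.19 to 0.14 in AngII+2W and from -0.18 to 0.17 in AngII+3W, with FDR of at least 0.361. The summed level of the family, Kdm4d included, varied little, from 1185 to 1278 CPM over the 8 libraries.

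The lysine methyltransferases of the Kmt series also gave no call. Kmt2a (MLL1), which methylates lysine 4 of histone H3 at promoters, had CTRL levels of 257 and 263 CPM, AngII levels of 192 and 211, AngII+2W levels of 248.6 and 283 and AngII+3W levels of 208 and 269.6. The AngII libraries lay below the CTRL libraries, while those of AngII+3W lay on both sides of them. Its log2 fold change was -0.37 in AngII (FDR 0.252), 0.03 in AngII+2W (FDR 0.968) and -0.12 in AngII+3W (FDR 0.798). Of the 8 methyltransferases 7 had a value below 0 in AngII, against 51.0% of all genes. Their median was -0.15, against -0.01 over all genes. Kmt2b, Kmt2c, Kmt2d, Kmt2e, Kmt5a, Kmt5b and Kmt5c ranged from -0.26 (Kmt2d) to 0.17 (Kmt5a) in AngII, from -0.19 to 0.13 in AngII+2W and from -0.18 to 0.08 in AngII+3W, with FDR of at least 0.478.

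Acetyltransferases, which include the coactivators p300 (Ep300) and CBP (Crebbp), gave no call either. In AngII 8 of 10 had a value below 0, against 51.0% of all genes, and their median was -0.15, against -0.01 over all genes. Crebbp had 263 and 242 CPM in the CTRL libraries, 209 and 233 in those of AngII, 223 and 220.0 in those of AngII+2W and 201 and 224 in those of AngII+3W. All infused libraries lay below both CTRL libraries, and its log2 fold changes were -0.19 (FDR 0.475), -0.19 (FDR 0.679) and -0.25 (FDR 0.490). Kat6b, an acetyltransferase of the MYST family, had CTRL levels of 113 and 109 CPM, AngII levels of 97.5 and 85.6, AngII+2W levels of 98.6 and 99.6 and AngII+3W levels of 109 and 118, with a log2 fold change of -0.28 in AngII (FDR 0.255). Kat5 (Tip60), also of the MYST family, had 21.2 and 23.7 CPM in the CTRL libraries, 19.0 and 20.6 in those of AngII, 18.7 and 19.7 in those of AngII+2W and 19.6 and 22.3 in those of AngII+3W. Kat14, a subunit of the ATAC complex, had CTRL levels of 30.5 and 35.0 CPM, AngII levels of 30.1 and 32.0, AngII+2W levels of 27.2 and 29.1 and AngII+3W levels of 34.2 and 29.5. The log2 fold changes of Kat5 and Kat14 in AngII+2W, their smallest p among the comparisons with CTRL, were -0.23 (FDR 0.615) and -0.22 (FDR 0.622). Kat2b (PCAF) had 97.7 and 95.5 CPM in the CTRL libraries, 104 and 91.5 in those of AngII, 106 and 113 in those of AngII+2W and 113 and 108 in those of AngII+3W, with a log2 fold change of 0.19 in AngII+3W (FDR 0.554). The pseudogene Kat2b-ps is 95.1% identical to Kat2b over 53.3% of its transcript. Kat2a, Kat6a, Kat7, Kat8 and Ep300 ranged from -0.20 to 0.18 in AngII, from -0.16 to -0.05 in AngII+2W and from -0.17 to 0.20 in AngII+3W, with FDR of at least 0.513.

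Of the sirtuins, NAD-dependent deacylases, none passed the threshold. Sirt2 had CTRL levels of 69.4 and 80.3 CPM, AngII levels of 62.7 and 63.8, AngII+2W levels of 67.4 and 74.0 and AngII+3W levels of 60.6 and 68.1, and its log2 fold change was -0.24 in AngII (FDR 0.348), while that in AngII+3W was -0.22 (FDR 0.531). Sirt5, a mitochondrial enzyme that removes succinyl groups, had 22.8 and 27.6 CPM in the CTRL libraries, 26.4 and 24.3 in those of AngII, 27.7 and 30.4 in those of AngII+2W and 35.5 and 29.4 in those of AngII+3W, where its log2 fold change was 0.36 (95% interval 0.01 to 0.72, FDR 0.390). The AngII+2W and AngII+3W libraries of Sirt5 lay above both CTRL libraries and those of AngII did not. Sirt1, Sirt3, Sirt4, Sirt6 and Sirt7 ranged from -0.37 (Sirt3) to 0.14 (Sirt7) in AngII, from -0.19 to 0.11 in AngII+2W and from -0.10 to 0.24 in AngII+3W, with FDR of at least 0.370. The transcript of Sirt3 shares an identical stretch of 28.5% with Ric8a.

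The enzymes of DNA methylation showed the same picture. Dnmt3a had CTRL levels of 117 and 121 CPM, AngII levels of 107 and 127, AngII+2W levels of 97.8 and 107 and AngII+3W levels of 107 and 124, and its log2 fold change was -0.22 in AngII+2W (FDR 0.635). Dnmt3b had 4.14 and 3.58 CPM in the CTRL libraries, 2.32 and 4.12 in those of AngII, 4.20 and 4.56 in those of AngII+2W and 3.76 and 4.51 in those of AngII+3W. It had the widest interval of all members, from -0.94 to 0.44 in AngII around a log2 fold change of -0.25 (FDR 0.703), with 43 and 87 counts in the AngII libraries, which differed most from each other. Dnmt1 had log2 fold changes of 0.09, -0.04 and -0.01. Tet1, which oxidises 5-methylcytosine, had CTRL levels of 16.0 and 13.2 CPM, AngII levels of 11.6 and 10.2, AngII+2W levels of 11.8 and 11.0 and AngII+3W levels of 14.9 and 16.3. The AngII and AngII+2W libraries lay below both CTRL libraries and those of AngII+3W overlapped them. Its log2 fold change was -0.42 in AngII (FDR 0.194), -0.36 in AngII+2W (FDR 0.491) and 0.10 in AngII+3W (FDR 0.846), and it was higher in AngII+3W than in AngII by 0.52 (FDR 0.156) and than in AngII+2W by 0.46 (FDR 0.463). Tet2 had log2 fold changes of -0.14, -0.15 and 0.03 in the order AngII, AngII+2W and AngII+3W, and Tet3 of 0.16, -0.06 and 0.17. The count ratio of Dnmt3a to Dnmt1 stayed between 2.64 and 3.21 in all libraries.

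The infused groups were also compared with each other. In edgeR's quasi-likelihood test no member differed between AngII+2W and AngII (0 of 63, against 0.163% of all genes), between AngII+3W and AngII (0 of 63, against 1.61%) or between AngII+3W and AngII+2W (0 of 63, against 0%). At an unadjusted p below 0.05 there were 5 members (7.94%, against 15.0% of all genes), 6 members (9.52%, against 17.8%) and 3 members (4.76%, against 8.83%). All of them had the higher value in the later group, as did 6.57%, 7.41% and 4.62% of all genes by this rule. In AngII+2W against AngII they were Hdac11, Ezh1, Kmt2a, Kdm1b and Sirt3, and in AngII+3W against AngII they were Hdac11, Tet1, Ezh1, Hdac9, Sirt3 and Kat6b. In AngII+3W against AngII+2W they were Kdm5d, Tet1 and Kat2a. With DESeq2 and with edgeR's likelihood ratio test, 1 member passed in AngII+2W against AngII and 1 in AngII+3W against AngII, Hdac11 in both, and with limma-voom the counts were 0. In these comparisons DESeq2 called 685 and 968 of all genes tested, the likelihood ratio test 766 and 1068, and limma-voom 15 and 287. With only the 2 groups compared, Hdac11 and Hdac9 passed in AngII+2W against AngII, where 884 of all genes passed. Between AngII+3W and AngII+2W the count was 0 with these tools too, where DESeq2 called 221 of all genes, the likelihood ratio test 273 and limma-voom 0. A missed threshold does not show that the levels were alike, since the median 95% interval reached 0.36 to either side on the log2 scale.

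The partners of these enzymes were taken from 9 lists that hold 152 genes outside the family symbols, of which 151 were listed in the counts and tested. In AngII, 2 of them fell and 0 rose in edgeR's quasi-likelihood test (1.32%, against 5.10% of all genes and 2.20% of all genes as lower), and the median log2 fold change of the listed genes was -0.08. Both belong to Polycomb. Cbx7, a chromodomain subunit of Polycomb repressive complex 1 that binds H3K27me3, had 35.5 and 43.0 CPM in the CTRL libraries, 13.1 and 18.6 in those of AngII, 36.6 and 49.3 in those of AngII+2W and 33.5 and 43.8 in those of AngII+3W. Of the 20 Polycomb repressive complex 1 genes it alone passed in AngII, where it fell by 1.30 on the log2 scale (standard error 0.236, FDR 0.0262 by edgeR's quasi-likelihood test). Cbx7 was also the only listed gene past the threshold between the infused groups in this test, as higher in AngII+3W than in AngII (FDR 0.0468). The call in AngII was lost with library totals (FDR 0.0506) and without any 1 of the CTRL, AngII or AngII+2W libraries (FDR 0.0580 to 0.134), and the call in AngII+3W against AngII was lost without any 1 of the 8 libraries (FDR 0.0670 to 0.208), with DESeq2 size factors (FDR 0.0508), with library totals (FDR 0.0840), with limma-voom (FDR 0.0522) and with only the 2 groups compared (FDR 0.167). Phf1, an accessory subunit of PRC2, had CTRL levels of 28.9 and 34.9 CPM, AngII levels of 16.5 and 19.0, AngII+2W levels of 28.9 and 33.8 and AngII+3W levels of 27.3 and 35.5. It fell by 0.84 on the log2 scale in AngII (standard error 0.180, FDR 0.0413) and was the only one of 9 accessory genes to pass. This call was lost with library totals (FDR 0.0895) and without any 1 of the CTRL, AngII or AngII+2W libraries (FDR 0.0998 to 0.227). For both genes the AngII libraries lay below all others. In the quasi-likelihood test none of the other lists had a gene past the threshold in AngII, namely 26 deacetylase co-repressor genes (median -0.05), 36 genes of acetyltransferase complexes and other acetyltransferases (-0.08), 27 other histone methyltransferases (-0.07), 11 COMPASS subunits (-0.09), 10 other JmjC proteins (-0.16), 9 readers and repair enzymes of methylated DNA (0.17) and 3 BET readers (-0.15). In AngII, DESeq2 called 5 of the 151 genes, Cbx7, Phf1, Pcgf5, Phf2 and Hells, and 1588 of all genes tested. The likelihood ratio test called 5, Cbx7, Phf1, Pcgf5, Gadd45b and Hells, and 1711 of all genes. By limma-voom Cbx7 and Phf1 were called, and 840 of all genes. Of the listed genes called by these tools Hells, a chromatin remodeller needed for DNA methylation, was the only one with a higher value in AngII (log2 fold change 1.00, FDR 0.0834 in the quasi-likelihood test). Between the infused groups, DESeq2 and the likelihood ratio test each called 4 listed genes in AngII+2W against AngII, Cbx7, Phf1, Pcgf5 and Gadd45b, where they called 685 and 766 of all genes. Each called 3 in AngII+3W against AngII, Cbx7, Phf1 and Pcgf5, where they called 968 and 1068 of all genes. In AngII+3W against AngII+2W, DESeq2 called Gadd45b and the likelihood ratio test called Gadd45b and Smyd1, beside 221 and 273 of all genes. By limma-voom 0 listed genes were called in each comparison between the infused groups. In AngII+2W and AngII+3W 0 of the 151 genes passed against CTRL in edgeR's quasi-likelihood test and in limma-voom. At an unadjusted p below 0.05 in the quasi-likelihood test there were 8 and 10 of 151, against 10.7% and 12.5% of all genes. DESeq2 and the likelihood ratio test called 2 in AngII+2W, Hr and Smyd1, where they called 373 and 420 of all genes. Both called 1 in AngII+3W, Gadd45b, where they called 585 and 556 of all genes. Smyd1 had 36.4 and 16.8 CPM in the CTRL libraries, 8.15 and 7.72 in those of AngII, 2.29 and 1.02 in those of AngII+2W and 53.3 and 3.81 in those of AngII+3W. Its highest level was in AngII+3W replicate 1, which also held the highest sums of cardiac and skeletal muscle markers. The part of muscle in these values was not tested. Gadd45b, which promotes DNA demethylation, had the smallest FDR in AngII+3W (log2 fold change -1.27, FDR 0.0657), with 7.65 and 7.997 CPM in the CTRL libraries, 3.89 and 4.98 in those of AngII, 8.50 and 9.13 in those of AngII+2W and 2.85 and 3.65 in those of AngII+3W.

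The libraries held between 18130441 and 21498200 counts, at which 3 counts correspond to between 0.140 and 0.165 CPM. Smooth muscle markers were present in every library, as were endothelial markers (sum 948 to 1295 CPM), but so were markers of adipocytes (2687 to 4411 CPM). The adipocyte sum was above the endothelial sum in all 8 libraries and above the smooth muscle sum in AngII replicate 1, AngII replicate 2 and AngII+3W replicate 1. These sums run over 6 adipocyte, 7 endothelial and 10 smooth muscle genes and are not per kilobase. They therefore do not rank the amounts of these tissues. In AngII, 8 of 10 smooth muscle markers fell, and their sum was 1893 to 2331 CPM against 7942 to 10178 CPM in CTRL, 3815 to 4219 CPM in AngII+2W and 2024 to 3534 CPM in AngII+3W, where 5 of 10 were lower than in CTRL. In AngII against CTRL 3 of 7 fibroblast markers rose, Col1a1, Col3a1 and Lum (list sum 16389 to 26338 CPM, against 2537 to 3959 CPM in CTRL). Most of this sum came from Col1a1 (6639 and 11178 CPM) and Col3a1 (8392 and 13397 CPM). Pdgfra, Dpt, Dcn and Pi16 did not pass. Of the macrophage markers 4 of 8 rose (677 to 1116 CPM, against 264 to 348 CPM). Of all genes, 5.10% passed in AngII and 0.285% in AngII+3W. None of the endothelial, lymphocyte, adipocyte, cardiac or skeletal muscle markers passed the threshold in any comparison with CTRL in edgeR's quasi-likelihood test. The levels of some differed widely all the same, since the 6 cardiac markers were lower in both AngII and both AngII+2W libraries than in both CTRL libraries. Their sum was 2268 to 5171 CPM in CTRL, 843 to 1410 CPM in AngII and 82.9 to 240 CPM in AngII+2W, where all 6 had an unadjusted p below 0.05. In AngII+3W 6 of 7 skeletal muscle markers had an unadjusted p below 0.05, against 12.5% of all genes. Their sum was 2424 CPM in replicate 1 but 10.5 CPM in replicate 2, against 43.0 to 74.4 CPM in CTRL. Only 1 of the 7 was higher than CTRL in both libraries. The part of these tissues in the values of the members was not tested. Some markers of smooth muscle, fibroblasts, macrophages and proliferation thus moved in the same comparison as Hdac9 and Hdac11, and their part in these values was not tested. AngII+3W replicate 1 held skeletal muscle genes at 2424 CPM, against at most 74.4 CPM in the other libraries, and cardiac genes at 5923 CPM, against 82.9 to 5171 CPM. Myh4 was the only marker at 0, in 3 libraries. In AngII+3W against CTRL, the log2 fold changes without AngII+3W replicate 1 were 0.22 for Hdac11 and -0.27 for Hdac5. Without AngII+3W replicate 2 they were -0.35 and -0.81. In AngII against CTRL the values without AngII+3W replicate 1 were -1.45 for Hdac9, -1.09 for Hdac11 and -0.63 for Hdac5. Without AngII+3W replicate 2 they were -1.44, -1.08 and -0.62. Neither library is part of that comparison, so leaving 1 out could hardly move its values and cannot test the part of muscle.

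The libraries of a group differed from each other in a way that followed the base composition of the members. The log2 ratio of replicate 1 to replicate 2 was correlated across the 63 members with the GC content of the transcript, where Pearson's r was -0.71 for CTRL, -0.58 for AngII, -0.42 for AngII+2W and -0.55 for AngII+3W. Over the 13702 genes above 2 CPM with a known transcript the values were -0.41, -0.27, -0.08 and -0.23. These points share 2 libraries in each group, and genes are not independent replicates. Of the 14 members with at least 55% GC, among them Hdac5, Hdac7, Kdm6b, Kmt2b and Tet3, 1, 1, 2 and 0 were higher in replicate 1, and of the 11 members under 45% GC, among them Suz12, Kdm7a, Kdm6a and Tet1, it was 9, 10, 6 and 9. The log2 fold changes from CTRL were less related to GC, where r was -0.14 for AngII, -0.24 for AngII+2W and -0.31 for AngII+3W. With offsets corrected for GC, Hdac9 and Hdac11 passed the threshold in AngII together with Hdac5, the median of the members was -0.06, and 0 members passed in AngII+2W and AngII+3W.

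**Figure D5:**
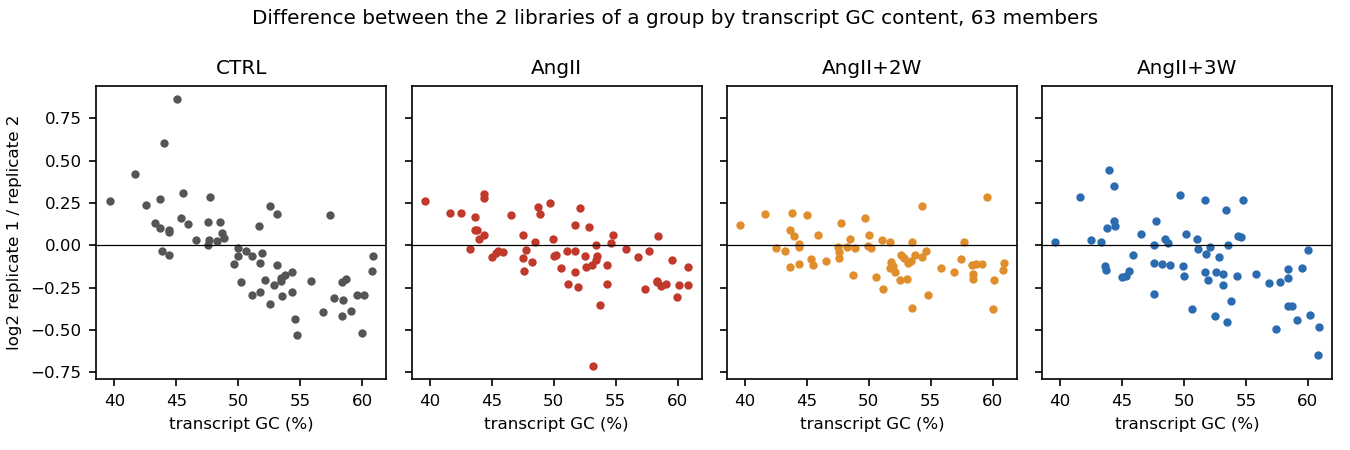
Log2 ratio of the replicate 1 to the replicate 2 level (y axis) by GC content of the transcript in percent (x axis) for the 63 members, 1 panel per group. The points slope downwards in all 4 groups, with r from -0.71 in CTRL to -0.42 in AngII+2W.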

How the data were processed

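Sequencing was done by the authors on ribosomal RNA-depleted libraries in a single lane. Per the study's methods and the labels, the authors quantified reads with Salmon in the ARMOR workflow against mouse Ensembl cDNA (GRCm38) and brought transcripts to gene level with tximeta. Expected counts per gene were deposited, as whole numbers, without normalization or filter. Strand use is not given in the sources used here, and overlapping or antisense genes may share reads. Groups and replicate numbers were taken from the labels.

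Tests used edgeR 4.0.16 (R 4.3.3), with filterByExpr against low counts, TMM scaling and the legacy form of the quasi-likelihood F test. The model held a coefficient for each of the 4 groups over 8 libraries, which leaves 4 residual degrees of freedom. Tests were two-sided. P-values were adjusted over 17182 genes by Benjamini-Hochberg. CPM use TMM library sizes, and 95% intervals use the degrees of freedom of the test. Labels do not say that same-numbered libraries were prepared together, and p-values measure the spread between 2 pools per group. Replicates differed beyond counting noise, with a chi-square per degree of freedom over the members between 7.42 and 41.2. Gene positions, transcript lengths and GC came from GENCODE M21 (GRCm38), which held 98.9% of the identifiers, and promoter windows came from RefSeq, with 53 of 64 members matched. Copies were searched with BLAST 2.17.0 at a minimum identity of 95% over at least 20% of the transcript. The script was tested on simulated data.

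The members, the 9 partner lists and the marker lists were chosen with earlier results of these data known. Values in every library are given for members past the threshold in any comparison, for PRC2 and Kdm6 genes, for the 10 members with the smallest p in each comparison with CTRL and for the first of each family in AngII, which makes 25 members. Partner genes past the threshold are named, and Gadd45b, Hells, Hr, Pcgf5, Phf2 and Smyd1 were chosen after their values were seen. The result of 1 marker list is not reported here. Alternatives were other scalings and filters, DESeq2 1.42.0, limma-voom (limma 3.58.1), other edgeR tests, fits of 2 groups, a replicate block and leaving out each library. Offsets corrected for GC were added after the data were seen.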

Additional observations from a re-analysis of the deposited data

How the results depend on the processing

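In AngII against CTRL, the 2 called members became 1 with library totals alone and 1 with GC-corrected offsets and the replicate block, and ranged from 0 to 3 when 1 library was left out. For AngII+3W against CTRL the count ranged from 0 to 1 when 1 library was left out, and the median of the members from -0.10 to 0.050. For AngII+2W against AngII it was 1 with every gene of at least 1 count, 1 with DESeq2, 1 with the likelihood ratio test, 2 with only the 2 groups compared, and 0 to 1 when 1 library was left out. For AngII+3W against AngII it was 1 with every gene of at least 1 count, 1 with DESeq2, 1 with the likelihood ratio test and 1 with GC-corrected offsets. Where a lone library was left in a group, it was taken to vary like the others. The causes were not tested. All genes called in AngII against CTRL numbered 877, and 1711 with the likelihood ratio test, 1588 with DESeq2 and 0 to 1504 when 1 library was left out.

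With the replicate number as a block, 2 members were called in AngII, 0 in the other comparisons, and 870 genes in AngII against CTRL, while 4 genes were called in AngII+3W against CTRL in place of 49. Nothing in the labels says that a number marks a shared batch, and the libraries were not treated as pairs. The difference between replicates 1 and 2 was correlated between groups over 13750 genes. The correlation was 0.40 for AngII with AngII+3W and 0.33 for CTRL with AngII+2W. It was 0.14 for CTRL with AngII+3W and 0.13 for AngII+2W with AngII+3W. For AngII it was 0.0031 with AngII+2W and 0.012 with CTRL. Of 1500 refitted values of the named members, 80 in 24 results changed sign. All 24 were at most 0.25 in size as reported, with an FDR of at least 0.659 after the change. When 1 library was left out, the log2 fold changes against CTRL that changed sign ranged as follows. In AngII+3W they were Hdac11 -0.35 to 0.22, Kat6b -0.086 to 0.084, Kat14 -0.15 to 0.050, Kdm6a -0.045 to 0.20, Kmt2a -0.38 to 0.049, Ezh1 -0.14 to 0.15, Eed -0.13 to 0.17, Dnmt3a -0.21 to 0.048, Dnmt3b -0.090 to 0.22 and Tet1 -0.048 to 0.24. In AngII+2W they were Sirt2 -0.18 to 0.026, Kdm6a -0.11 to 0.14, Kmt2a -0.071 to 0.11, Ezh1 -0.12 to 0.18 and Eed -0.11 to 0.19. In AngII they were Sirt5 -0.12 to 0.15, Kat2b -0.077 to 0.10, Kat14 -0.17 to 0.016, Kdm1b -0.13 to 0.16, Kdm6a -0.17 to 0.078, Eed -0.14 to 0.16, Dnmt3a -0.16 to 0.091 and Dnmt3b -0.73 to 0.098. With GC-corrected offsets they were Hdac11 0.085, Kat14 0.038, Kdm6a -0.032, Kdm6b 0.0015 and Eed -0.0046 in AngII+3W, Kat2b -0.0071, Kdm1b -0.022 and Eed -0.0028 in AngII, Kdm6a -0.068 in AngII+2W. With GC-corrected offsets and the replicate block they were Hdac11 0.082, Kat14 0.036, Kdm6a -0.033 and Eed -0.0014 in AngII+3W, Kat2b -0.0072 and Kdm1b -0.022 in AngII, Kdm6a -0.068 in AngII+2W. With DESeq2 size factors they were Kdm6a -0.0010 in AngII+2W, Ezh1 -0.0020 in AngII+3W. With at least 10 counts in every library they were Kdm6a -0.00073 in AngII+2W. With DESeq2 they were Kdm6a -0.00097 in AngII+2W, Ezh1 -0.0020 in AngII+3W. With library totals alone they were Ezh1 -0.021 and Eed -0.0024 in AngII+3W, Dnmt3a 0.0066 in AngII. With only the 2 groups compared they were Ezh1 -0.020 and Eed -0.0018 in AngII+3W. Dnmt3b and Hdac11 had under 11 CPM in every library, and the parts of depth and of replicate spread in their intervals were not tested. When 1 library was left out, 54 of 75 log2 fold changes of the named members from CTRL moved by over 1.5 times at least once.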
